A study of Rattus norvegicus with 6 samples.

Results

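Laminins are the cross-shaped glycoproteins that organise basement membranes, and integrins and dystroglycan are the surface receptors through which cells hold on to them. Their genes were taken by name from the table of counts: laminin chains, nidogens, agrin, integrin subunits and dystroglycan. The naming pattern found 41 protein-coding genes among the 25689 genes of the table. Of these, 13 encode ligands, 25 encode receptors, and 3 (Itgb1bp1, Itgb1bp2 and Itgb3bp) share the start of an integrin name but encode proteins that are not integrin subunits. Counts were high enough for a test for 36 of the 41 genes, namely 12 ligands, 22 receptors and 2 of the 3 others. Lamb3, Itga10, Itga2b, Itgb7 and Itgb1bp2 did not pass the filter on low counts. They lay between 0 and 1.87 CPM, where CPM are counts scaled to a common library size with edgeR's TMM method, in every sample. Perlecan (Hspg2) is listed under a clone name, AABR07073181.1, which RefSeq gives as a synonym, and Itgb5 is listed as a processed transcript. Both therefore fall outside the naming rule and are given apart.

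RNA was sequenced from neurons of the dorsal root ganglia (DRGs) at levels L1-L2 of SHRs. These spontaneously hypertensive rats are an inbred strain with inherited high blood pressure, and the labels give the genotype as wild type and the age as 6 to 8 weeks, whereas the methods of the study give 12 weeks at purchase. The PRATA group consisted of 3 rats whose perirenal adipose tissue, the fat around both kidneys, had been surgically ablated, and the sham group of 3 rats that had a sham operation. Cells were collected 4 weeks after surgery, ganglia were dissociated with collagenase and trypsin, and neurons were separated from glia by their slower adhesion to a coated dish. The comparison asks which laminin, nidogen, integrin and dystroglycan transcripts differed between the ganglia of ablated and sham-operated rats.

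A laminin is assembled from an alpha, a beta and a gamma chain, and nidogens, perlecan and agrin tie it to collagen IV and to cells. An integrin is a pair of an alpha and a beta subunit: some pairs bind laminin, others bind collagen, fibronectin and other proteins with an RGD motif, or counter-receptors on leukocytes and endothelium. In a DRG, each sensory neuron is wrapped by satellite glia, and this unit, like each Schwann cell with its axon, is covered by a basement membrane.

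Sham replicate 2 had the fewest counts in total, 5892967, and sham replicate 1 the most, 15226952, and the 41 genes took between 0.237% and 0.570% of them. A floor of 3 counts equals 0.197 to 0.509 CPM by total counts, without the TMM scaling of the other CPM values, and this covers counting error only. All 20 sensory neuron markers were detected, with a summed level of 14600 to 22200 CPM after PRATA and 10200 to 15500 CPM after the sham operation, but the 12 satellite glia markers were also all detected, at 3700 to 6970 CPM after PRATA and 4940 to 9760 CPM after the sham operation, and the 13 Schwann cell markers at 2190 to 2870 CPM after PRATA and 1720 to 1900 CPM after the sham operation. The samples labelled as DRG neurons thus held glial RNA in every library. In RNA of mixed cells, fewer cells of a type and less RNA per cell cannot be told apart. PRATA replicate 3 and sham replicate 1 held the highest sums of fibroblast markers, 2698 and 2638 CPM, against at most 1579 CPM in the other 4 samples. Sham replicate 2 was the lowest sham sample for many of the genes described, and the effect of leaving out libraries is given beside the genes whose calls it changed among the 11 for which alternatives were run.

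The genes that stood lower after PRATA were Lamc1 and Lama4 among the ligands and Itgb8, Itga8, Itgb3, Itga1, Itga5 and Itgav among the receptors, with log2 fold changes from -1.71 for Itgb8 to -0.90 for Itgav. These were the 2 of 12 ligands and 6 of 22 receptors tested that were lower at an unadjusted p under 0.05 (edgeR's quasi-likelihood test, two-sided), where 10.1% of all genes tested were. No ligand or receptor was higher at that p, where 8.19% of all genes tested were. With a log2 fold change under -1 required as well, 2 ligands and 4 receptors were lower (3.23% of all genes tested), and above 1 there were none (1.17% of all genes tested). None of the 8 passed adjustment, since no gene of the 14919 tested reached an adjusted p under 0.05 in edgeR (0%, Benjamini-Hochberg over all genes tested), with 1512 genes lower and 1222 higher at an unadjusted p under 0.05. At an adjusted p under 0.05, DESeq2 called 728 genes, limma voom with sample quality weights 1173 and limma-trend 0. Counted at an adjusted p under 0.05, DESeq2 called 7 of the 8 lower, limma voom with sample quality weights 7, limma-trend 0, and edgeR without sham replicate 2 called 7. With any other single library left out, edgeR called 0 of the 8. The gene missed by each of those that called 7 was Itgav. The median log2 fold change was -0.32 over the 12 ligands and -0.13 over the 22 receptors, against 0.02 over all genes tested. With 1 library left out, the ligand median lay between -0.47 without PRATA replicate 2 and 0.0082 without sham replicate 1, and the receptor median between -0.49 without PRATA replicate 3 and -0.02 without sham replicate 1. Of the ligands 9 were below 0 and 3 above, and of the receptors 14 were below 0 and 8 above, where 48.0% of all genes tested were below 0. The genes were proposed with results of these data known, so no test over either class was made.

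**Figure D1:**
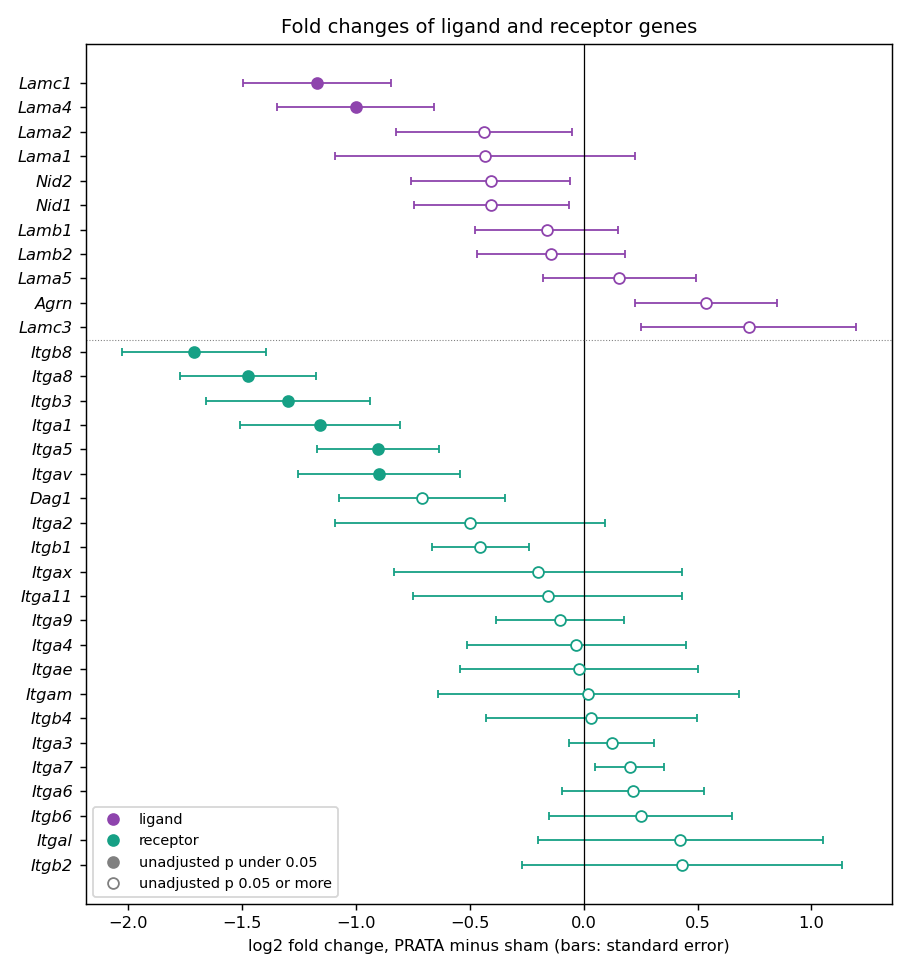
Log2 fold change, PRATA minus sham, with its standard error (derived from the F value of edgeR's test) for 11 ligand genes (purple, above the dotted line) and 22 receptor genes (green, below). Filled points have an unadjusted p under 0.05 in edgeR, and all 8 of them lie below 0, from -1.71 for Itgb8 to -0.90 for Itgav.

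Among the ligands, Lamc1 and Lama4 were the genes with an unadjusted p under 0.05. Lamc1 (ENSRNOG00000002680) encodes the gamma chain found in most laminins. It was at 335, 429.7 and 411 CPM in PRATA replicates 1, 2 and 3 and 982, 494 and 1173 CPM in sham replicates 1, 2 and 3. All 3 PRATA samples were below all 3 sham samples, although sham replicate 2 came close to the PRATA range. The means were 392 ± 49.9 CPM (SD, n = 3) after PRATA against 883 ± 349.8 CPM (SD, n = 3) after the sham operation, with a log2 fold change of -1.17 (SE 0.32, unadjusted p = 0.00669 and adjusted p = 0.169, edgeR). The exact permutation test gave p = 0.10 (two-sided), the smallest p that 3 samples against 3 allow, as it did for each member named here whose groups did not overlap. Groups with PRATA below and no overlap were found for 11.2% of all genes tested. Lama4 (ENSRNOG00000000599) encodes an alpha chain of the basement membranes of vessels and peripheral nerve. It was at 132, 208 and 165 CPM after PRATA and 409, 178 and 423 CPM after the sham operation. Here sham replicate 2 lay inside the PRATA range while sham replicates 1 and 3 stood above all other samples, with a log2 fold change of -1.001 (SE 0.34, unadjusted p = 0.0194 and adjusted p = 0.21, edgeR). Without sham replicate 2, edgeR's adjusted p was 0.0291 for Lamc1 and 0.0359 for Lama4. In every other fit that left out 1 library, it was 0.252 to 0.55 for Lamc1 and 0.294 to 0.563 for Lama4. Lama4 lost its unadjusted p under 0.05 in edgeR in 4 of the 6 fits that left out 1 library, with values of 0.0745 without PRATA replicate 1, 0.0522 without PRATA replicate 3, 0.0593 without sham replicate 1 and 0.077 without sham replicate 3. Lamc1 kept its own in all 6. Without PRATA replicate 3 and sham replicate 1 together, Lama4 had a log2 fold change of -0.84 with an unadjusted p of 0.0893. In the fit with replicate numbers as a block, the unadjusted p of Lama4 was 0.0608.

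Differences in the partner chains of these laminins were within the spread of the samples. Lama2, the alpha chain of muscle and Schwann cell basement membranes, was at 97.3, 237 and 181 CPM after PRATA and 323, 139.5 and 236 CPM after the sham operation. The groups overlapped, with a log2 fold change of -0.44 (SE 0.39, unadjusted p = 0.288 and adjusted p = 0.57, edgeR). Lamb1, the widespread beta chain, was at 91.3, 199.6 and 151 CPM after PRATA and 209, 119 and 167 CPM after the sham operation, with a log2 fold change of -0.16 (SE 0.31, unadjusted p = 0.617 and adjusted p = 0.819, edgeR). Lamb2, the beta chain of synaptic basement membranes, had a log2 fold change of -0.14, with samples between 60.3 and 141 CPM and overlapping groups. In Lama2, Lamb1, Lamb2 and Lama4, PRATA replicate 1 had the lowest value of the 6 samples.

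For the nidogens, which bridge laminin and collagen IV, Nid1 had a log2 fold change of -0.41 and Nid2 of -0.41 (unadjusted p = 0.266 and 0.277, edgeR). Nid1 was at 63.5, 150.0 and 173 CPM after PRATA and 189, 147 and 176 CPM after the sham operation, and PRATA replicate 1 was the low sample. Perlecan, the heparan sulfate proteoglycan listed as AABR07073181.1 (ENSRNOG00000021437), was at 126, 315 and 201 CPM after PRATA and 455, 155 and 223 CPM after the sham operation. Its groups overlapped, with a log2 fold change of -0.38 (SE 0.45, unadjusted p = 0.426 and adjusted p = 0.685, edgeR).

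The 3 ligand genes above 0 were Agrn, Lamc3 and Lama5. Agrn, a proteoglycan that organises acetylcholine receptors at the neuromuscular junction, was at 36.1, 63.1 and 35.4 CPM after PRATA and 42.1, 22.3 and 28.1 CPM after the sham operation, with a log2 fold change of 0.54 (SE 0.31, unadjusted p = 0.122 and adjusted p = 0.387, edgeR). Lamc3, a minor gamma chain, was at 5.16, 10.04 and 3.08 CPM after PRATA and 4.84, 2.497 and 3.59 CPM after the sham operation, and PRATA replicate 2 stood above the other 5 samples. Its log2 fold change was 0.72 (SE 0.47, unadjusted p = 0.162, edgeR). For Lama5, the alpha chain of many adult basement membranes, the log2 fold change was 0.16 and the samples lay between 11.6 and 30.4 CPM. Lama1, an alpha chain of embryonic basement membranes, was at most at 2.03 CPM in any sample, with overlapping groups.

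**Figure D2:**
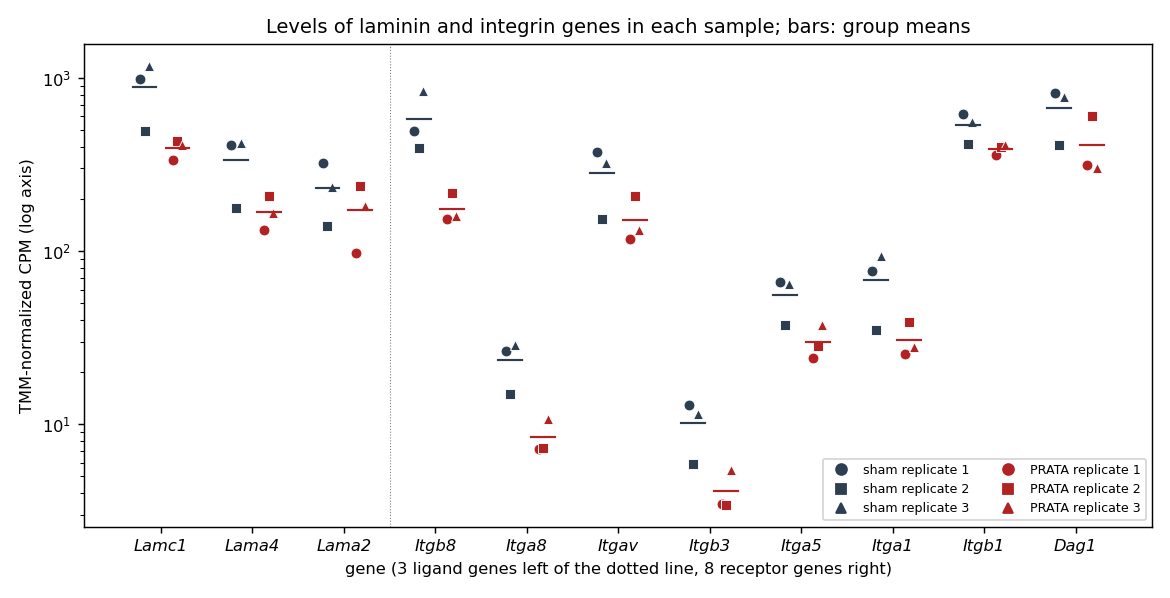
TMM-normalized CPM (log axis) of 3 ligand genes (left of the dotted line) and 8 receptor genes in each of the 6 samples, with bars at the group means (sham dark, PRATA red, marker shape by replicate). For Itgb8, Itga8, Itgb3, Itga5, Itgb1 and Lamc1 every PRATA point lies below every sham point, and sham replicate 2, the dark square, is the lowest sham point in each gene shown.

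Receptor genes were ordered by what the subunits bind, a grouping by general knowledge that was made after the values were seen. The lowest fold changes were found among subunits of the integrins that bind RGD-containing proteins. Itgb8 (ENSRNOG00000006569) pairs with Itgav in a receptor that binds and activates latent TGF-beta. It was at 154, 215 and 159 CPM in PRATA replicates 1, 2 and 3 and 496, 392 and 839 CPM in sham replicates 1, 2 and 3. All PRATA samples lay below all sham samples, and sham replicate 3 was the highest of the 6. The means were 176 ± 34.3 CPM (SD, n = 3) after PRATA against 576 ± 234 CPM (SD, n = 3) after the sham operation, with a log2 fold change of -1.71 (SE 0.32, unadjusted p = 0.000597 and adjusted p = 0.156, edgeR). Itga8 (ENSRNOG00000016538) pairs with Itgb1 and binds nephronectin. It was at 7.23, 7.25 and 10.8 CPM after PRATA and 26.3, 14.98 and 28.8 CPM after the sham operation, again without overlap, and had a log2 fold change of -1.47 (SE 0.30, unadjusted p = 0.00112 and adjusted p = 0.156, edgeR). These were the only receptor or ligand genes tested with an unadjusted p under 0.005. Their partners Itgav and Itgb1 had log2 fold changes nearer to 0. Itgav (ENSRNOG00000004912), the alpha subunit shared by several such integrins, was at 117, 207 and 132 CPM after PRATA and 372, 154 and 323 CPM after the sham operation. Sham replicate 2 lay within the PRATA range, with a log2 fold change of -0.90 (SE 0.36, unadjusted p = 0.0358 and adjusted p = 0.243, edgeR).

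Itgb3 (ENSRNOG00000048449), another partner of Itgav and a vitronectin receptor subunit, was at 3.49, 3.43 and 5.46 CPM after PRATA and 12.9, 5.93 and 11.5 CPM after the sham operation. The groups did not overlap, but the PRATA replicate 3 and sham replicate 2 values were close. The gene had a log2 fold change of -1.30 (SE 0.36, unadjusted p = 0.00667 and adjusted p = 0.169, edgeR). Itga5 (ENSRNOG00000057451), the alpha subunit of the classical fibronectin receptor, was at 24.3, 28.3 and 37.3 CPM after PRATA and 66.0, 37.5 and 64.6 CPM after the sham operation. PRATA replicate 3 and sham replicate 2 were nearly level, and the gene had a log2 fold change of -0.90 (SE 0.27, unadjusted p = 0.00949 and adjusted p = 0.175, edgeR). Itgb6, an epithelial partner of Itgav, had a log2 fold change of 0.25 and overlapping groups. Of the 6 subunits of this kind tested, 5 were lower at an unadjusted p under 0.05, where 10.1% of all genes tested were. Their median log2 fold change was -1.10, and Itga2b was too low to test. As the group was formed after the values were seen, its count is description and not a test. Itgb1, the partner of Itga8 (log2 fold change -0.45, unadjusted p = 0.0664, edgeR), and Itgb5 were not counted in it. Itgb5, outside the naming rule, was at 18.7, 30.5 and 20.0 CPM after PRATA and 24.2, 16.7 and 19.1 CPM after the sham operation, with a log2 fold change of 0.21 (SE 0.25, unadjusted p = 0.431 and adjusted p = 0.689, edgeR).

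Without sham replicate 2, edgeR's adjusted p was 0.0291 for Itgb8, 0.0291 for Itga8, 0.0394 for Itgb3, 0.0394 for Itga5 and 0.0523 for Itgav. In every other fit that left out 1 library, it was 0.22 to 0.55 for Itgb8 and for Itga8. In those fits it was 0.272 to 0.55 for Itgb3, 0.278 to 0.551 for Itga5 and 0.292 to 0.591 for Itgav. Leaving out PRATA replicate 3 and sham replicate 1 gave log2 fold changes of -1.75 for Itgb8, -1.62 for Itga8, -1.36 for Itgb3, -0.97 for Itga5 and -0.57 for Itgav, and only Itgav of these 5 then had an unadjusted p over 0.05 in edgeR, of 0.208. In the fit with replicate numbers as a block, Itgav had an unadjusted p of 0.0957, and the other 4 stayed under 0.05. Itgav also lost its unadjusted p under 0.05 in edgeR without PRATA replicate 1 (0.121), PRATA replicate 3 (0.103), sham replicate 1 (0.122) or sham replicate 3 (0.105), and the other 4 did not in any of the 6 fits that left out 1 library.

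Promoter sequences are shown for Itgb8, Itga8 and Lamc1, the 3 genes with the lowest p among those without overlap that the promoter table holds, to set side by side the start regions of genes that were lower in the same samples. The table of rat promoters held 31 of the 41 genes, and 7 of the 8 with an unadjusted p under 0.05, without Itgb3. The 250 bases before the start of each gene were taken from RefSeq's rat build GRCr8. They lie at chr6:146351246-146351495 on the minus strand, chr17:80410634-80410883 on the minus strand and chr13:68051987-68052236 on the minus strand, and are written 5′ to 3′ on the gene's strand. Capitals mark matches, on either strand, to the GC box GGGCGG (or CCGCCC) and to the TEAD motif GGAATG (or CATTCC). In Lamc1 the CATTCC match overlaps a CCGCCC match by 2 letters, and the first 2 CCGCCC matches share 1 letter.
Itgb8: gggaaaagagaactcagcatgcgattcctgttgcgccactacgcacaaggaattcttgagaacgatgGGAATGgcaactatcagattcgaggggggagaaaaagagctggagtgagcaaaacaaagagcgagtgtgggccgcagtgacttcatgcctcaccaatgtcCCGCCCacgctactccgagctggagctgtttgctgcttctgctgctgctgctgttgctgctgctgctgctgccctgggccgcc
Itga8: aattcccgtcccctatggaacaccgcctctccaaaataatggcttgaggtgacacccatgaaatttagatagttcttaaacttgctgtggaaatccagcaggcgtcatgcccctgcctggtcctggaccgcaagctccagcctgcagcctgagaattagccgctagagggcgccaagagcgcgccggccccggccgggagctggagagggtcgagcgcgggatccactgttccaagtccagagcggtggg
Lamc1: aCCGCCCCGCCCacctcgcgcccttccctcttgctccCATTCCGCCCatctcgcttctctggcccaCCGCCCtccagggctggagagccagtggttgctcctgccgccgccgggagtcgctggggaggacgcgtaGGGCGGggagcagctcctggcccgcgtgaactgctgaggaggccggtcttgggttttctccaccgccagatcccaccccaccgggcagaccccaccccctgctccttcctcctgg
The GC box was found 5 times in the Lamc1 window, 1 time in Itgb8 and 0 times in Itga8, and in 30.5% of the 33469 windows of this length in the table. GGAATG was found once each in Itgb8 and Lamc1 and in 12.1% of all windows. Neither TATAAA (in 12.9% of all windows) nor the AP-1 motif TGANTCA (in 6.34%) was in any of the 3 windows. The windows held 11, 15 and 19 CG dinucleotides for Itgb8, Itga8 and Lamc1, against a median of 5. A match of letters is not a binding site.

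Among the 8 receptor genes tested whose products bind laminin, Itga1 was the 1 lower at an unadjusted p under 0.05, where 10.1% of all genes tested were. Itga1 (ENSRNOG00000053550), which pairs with Itgb1 to bind collagen and laminin, was at 25.6, 38.8 and 27.8 CPM after PRATA and 77.0, 35.1 and 93.3 CPM after the sham operation. PRATA replicate 2 lay above sham replicate 2, and Itga1 had a log2 fold change of -1.16 (SE 0.35, unadjusted p = 0.0106 and adjusted p = 0.18, edgeR). Without sham replicate 2 its adjusted p was 0.0303 (edgeR). In every other fit that left out 1 library, the adjusted p of Itga1 was 0.286 to 0.551 (edgeR). Without PRATA replicate 3 and sham replicate 1 its unadjusted p was 0.0536. Itga2, a second collagen receptor subunit, had a log2 fold change of -0.50 and samples from 1.19 to 7.93 CPM, with PRATA replicate 3 lowest.

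Itgb1 (ENSRNOG00000010966), the beta subunit common to most laminin, collagen and fibronectin receptors, was at 358, 399.9 and 407 CPM after PRATA and 620.3, 416 and 559 CPM after the sham operation. All 3 PRATA samples were below all 3 sham samples, with a log2 fold change of -0.45 (SE 0.21, unadjusted p = 0.0664 and adjusted p = 0.303, edgeR). Dag1 (ENSRNOG00000019400), which encodes dystroglycan, the laminin receptor of Schwann cells and muscle, was at 316, 605 and 302 CPM after PRATA and 819.8, 409 and 774 CPM after the sham operation. Its groups overlapped through PRATA replicate 2, with a log2 fold change of -0.71 (SE 0.37, unadjusted p = 0.0869 and adjusted p = 0.332, edgeR). Without sham replicate 2, the unadjusted p in edgeR was 0.0108 for Itgb1 and 0.021 for Dag1, and without PRATA replicate 2 it was 0.0169 for Dag1. In every other edgeR fit that left out 1 library, it was 0.11 to 0.178 for Itgb1 and 0.219 to 0.238 for Dag1. With DESeq2 the unadjusted p was 0.0293 for Itgb1 and 0.0413 for Dag1, and with limma voom 0.011 and 0.0114. For Itgb1 it was also under 0.05 in edgeR with library size alone (0.0484) and with protein-coding genes alone (0.0432). The adjusted p of both genes stayed over 0.05 in each of these fits.

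The laminin-binding integrin subunits Itga3, Itga6, Itga7 and Itgb4 lay at or slightly above 0. Itga7, a laminin-binding alpha subunit, was at 152, 157 and 152 CPM after PRATA and 133, 123 and 144 CPM after the sham operation. All 3 PRATA samples were above all 3 sham samples, the only member of which this was true, where 11.6% of all genes tested showed it. The difference was small, with a log2 fold change of 0.20 (SE 0.15, unadjusted p = 0.218 and adjusted p = 0.497, edgeR). Itga3 and Itga6, which also bind laminin, had log2 fold changes of 0.12 and 0.22 with overlapping groups. Itgb4, the partner of Itga6 in Schwann cells and epithelia, was at 209, 569 and 224 CPM after PRATA and 487, 193 and 299 CPM after the sham operation. PRATA replicate 2 and sham replicate 1 were the high samples, and the log2 fold change was 0.03 (SE 0.46, unadjusted p = 0.945, edgeR). Among the 8 subunits that bind laminin tested (Itga1, Itga2, Itga3, Itga6, Itga7, Itgb1, Itgb4 and Dag1), 4 were below 0 and 4 above. The median log2 fold change of these 8 was -0.21.

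Differences in the remaining subunits were within the spread of the samples. Itga9, a tenascin receptor subunit, was at 6.45, 6.06 and 5.77 CPM after PRATA and 7.05, 4.53 and 7.93 CPM after the sham operation, and Itga11, a collagen receptor subunit, was at most at 3.75 CPM in any sample. The leukocyte subunits Itgal, Itgam, Itgax, Itgb2, Itga4 and Itgae had log2 fold changes between -0.20 for Itgax and 0.43 for Itgb2, and all 6 overlapped between the groups. Itgb2, the beta subunit common to Itgal, Itgam and Itgax, was at 1.16, 4.54 and 13.05 CPM after PRATA and 6.56, 3.59 and 3.78 CPM after the sham operation. PRATA replicate 3 was the highest sample for Itgal, Itgam and Itgb2, and PRATA replicate 1 the lowest for Itgam, Itgax and Itgb2. RefSeq also gives the name Itgax as a synonym of Itgad, so which of these neighbouring, related genes the row counts is uncertain. The macrophage and other leukocyte markers summed to 85.2 to 316 CPM after PRATA and 72.7 to 181 CPM after the sham operation, with Cx3cr1, Cd3e, Cd3g, S100a8 and S100a9 among those at 0 in at least 1 sample. Of the genes that only share the name, Itgb1bp1, which binds the tail of Itgb1, had a log2 fold change of -0.12, and Itgb3bp, a centromere protein, of 0.05.

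**Figure D3:**
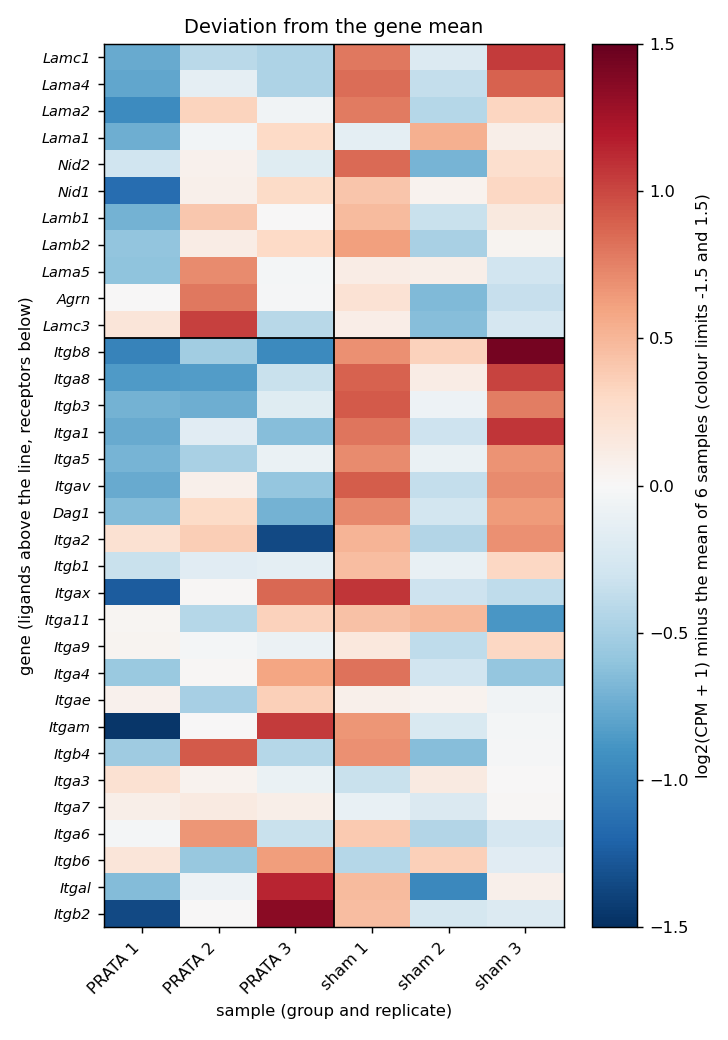
Log2(CPM + 1) of 33 ligand and receptor genes, as the deviation from each gene's mean over the 6 samples (blue below, red above, ligands above the line). Itgb8, Itga8, Itgb3 and Itga1 are red in sham replicates 1 and 3. In sham replicate 2, Itgb8 and Itga8 are a paler red, while Itgb3 lies slightly below its mean and Itga1 below its mean. The leukocyte subunits Itgam and Itgb2 are highest in PRATA replicate 3.

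The sham samples were not alike in these genes. Sham replicate 2, the library with the fewest counts, was the lowest sham sample in all 8 genes with an unadjusted p under 0.05, in 73.5% of all genes lower at that p and in 38.1% of all genes tested. It was the lowest in 9 of the 12 ligands and 16 of the 22 receptors tested.

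Ratios of 2 chains or subunits within a sample do not depend on normalization, and 9 of them were compared (exact permutation test, two-sided, Benjamini-Hochberg over the 9). The ratio of Lamc3 to Lamc1 counts was the one without overlap. Its log2 value was -6.004, -5.41 and -7.04 after PRATA and -7.66, -7.58 and -8.33 after the sham operation, a difference of 1.71 (exact p = 0.10, adjusted p = 0.90). For Lama5 to Lama4 the difference was 0.97 and for Lama2 to Lama4 0.47, both with overlapping groups (exact p = 0.30 for each). Lamb2 to Lamb1 differed by 0.08, Nid2 to Nid1 by 0.25, Itgb4 to Itgb1 by 0.41, Dag1 to Itgb1 by -0.29 and Itga3 to Itga6 by -0.07 on the log2 scale. Itga7 to Itga6 differed by 0.0049. The exact p of these 6 ratios was 0.50 or more.

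Of the 12 satellite glia markers, 11 had a log2 fold change below 0 and 2 of these an unadjusted p under 0.05, with a median of -0.60. Of all genes tested, 48.0% were below 0, and 10.1% were lower and 8.19% higher at that p. Their summed level was higher in sham replicates 1 and 3 (8643 and 9765 CPM) than in sham replicate 2 (4940 CPM). Lamc1, Lama4, Itgb8, Itga8 and Itga1 had the same order among sham samples. Itgav, Itgb3 and Itga5 did not, since sham replicate 1 stood above sham replicate 3. All 20 sensory neuron markers lay above 0, with a median of 0.51, and 6 were higher at an unadjusted p under 0.05, beside the 8.19% of all genes tested. Of the 13 Schwann cell markers, 12 lay above 0, with a median of 0.75. At that p 5 were higher and 1 was lower, beside 8.19% and 10.1% of all genes tested. The fibroblast markers summed to 661 to 2700 CPM after PRATA and 1280 to 2640 CPM after the sham operation, the endothelial markers to 85.7 to 174 CPM after PRATA and 44.7 to 236 CPM after the sham operation and the mural cell markers to 218 to 313 CPM after PRATA and 164 to 358 CPM after the sham operation, each with overlapping groups. Sox10 stands in both glial lists, so the 1 lower Schwann cell marker is also 1 of the 2 lower satellite glia markers. Itgam and Itga2b stand in the leukocyte and platelet lists. The platelet markers together did not exceed 6.98 CPM, while the red blood cell markers ranged from 3.59 CPM in sham replicate 3 to 1046 CPM in PRATA replicate 3.

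The 11 genes plotted by sample were also set against the summed counts of the satellite glia markers in the same sample, a measure added after seeing the data. Itgb8 differed by -1.005 on the log2 scale and Itga8 by -0.79, and for both the 3 PRATA samples still lay below the 3 sham samples, for Itga8 by a narrow margin. The difference was -0.60 for Itgb3, -0.44 for Lamc1, -0.42 for Itga1, -0.28 for Lama4, -0.23 for Itga5 and -0.20 for Itgav, with overlapping groups for each. Relative to the sensory neuron markers the differences were larger, -2.26 for Itgb8 and -1.69 for Lamc1. The part of cell composition in these differences was not tested.

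**Figure D4:**
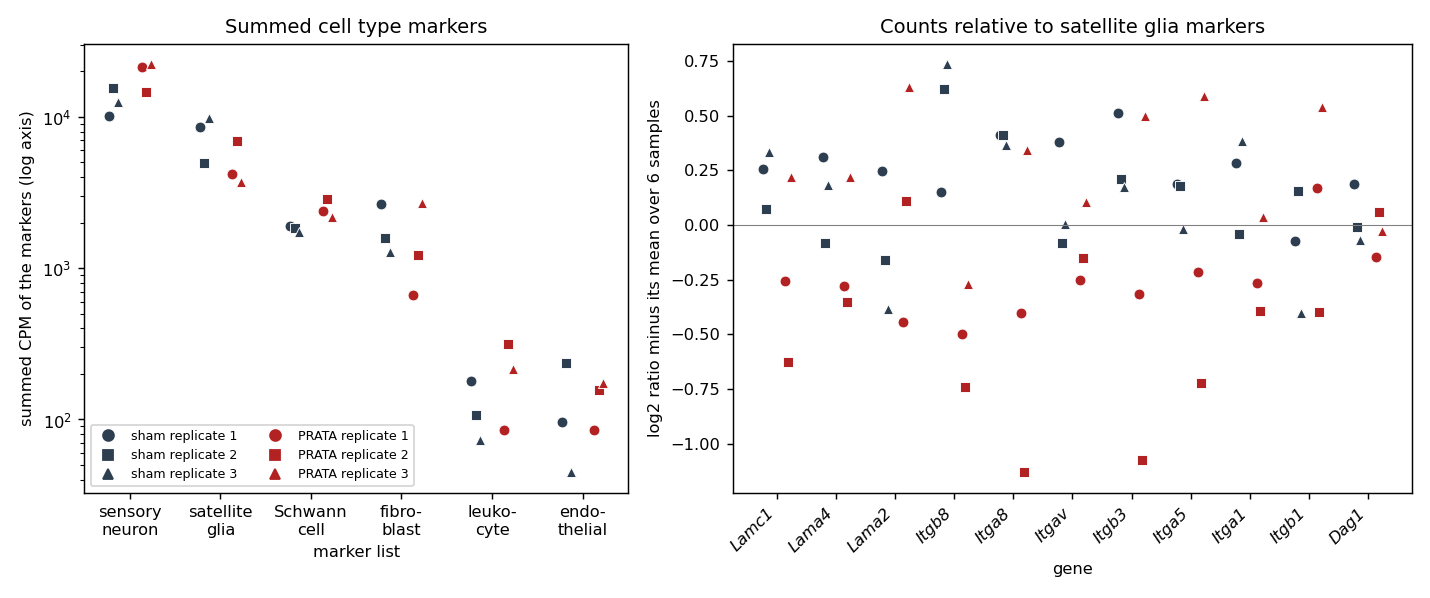
Left, summed CPM (log axis) of 6 lists of cell type markers in each sample. Right, log2 ratio of each gene's counts to the summed satellite glia marker counts, minus the mean ratio over the 6 samples. In the right panel every PRATA point lies below every sham point for Itgb8 and Itga8, and the groups overlap for the other 9 genes.

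Other genes of the pathway were taken from 4 lists. Of the 36 focal adhesion and integrin activation genes tested, 5 were lower and 1 higher at an unadjusted p under 0.05, against 10.1% and 8.19% of all genes tested, with a median log2 fold change of -0.12. Actn1, an actin cross-linker of adhesion sites, was at 156, 151 and 173 CPM after PRATA and 517, 229 and 660.3 CPM after the sham operation. All 3 PRATA samples were below all 3 sham samples, with a log2 fold change of -1.55 (SE 0.36, unadjusted p = 0.00247 and adjusted p = 0.156, edgeR). Fermt2, the kindlin that activates integrins by binding their beta tails, was at 382, 413 and 401 CPM after PRATA and 1169.6, 547 and 1169.8 CPM after the sham operation, with a log2 fold change of -1.27 (SE 0.31, unadjusted p = 0.0032 and adjusted p = 0.157, edgeR). Pxn, the adhesion scaffold paxillin, had a log2 fold change of -1.03 without overlap. The 1 gene higher was Ptk2b, a kinase related to focal adhesion kinase, at 0.63 without overlap, and Flna, the actin cross-linker filamin A, was among the lower genes at -1.24 with overlapping groups. Both were named after their values were seen.

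Of the 25 genes of the dystroglycan complex and its glycosylation tested, 2 were lower and 2 higher at that p, where 10.1% and 8.19% of all genes tested were, with a median log2 fold change of 0.03. Prx, the periaxin of myelinating Schwann cells and also a member of the Schwann cell marker list, was at 43.4, 88.7 and 35.6 CPM after PRATA and 25.3, 27.5 and 11.4 CPM after the sham operation, with a log2 fold change of 1.39 (SE 0.43, unadjusted p = 0.0114 and adjusted p = 0.182, edgeR). Sgca, a sarcoglycan at or below 2.64 CPM in every sample, had a log2 fold change of -1.33 without overlap.

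Of the 24 other basement membrane and laminin-binding genes tested, 4 were lower and 1 higher at that p, beside the same 10.1% and 8.19% over all genes tested, with a median log2 fold change of -0.38. Col4a1, a chain of collagen IV, was at 237, 402 and 343 CPM after PRATA and 1005, 392 and 1262 CPM after the sham operation. Sham replicates 1 and 3 stood above all other samples, as for Lama4, with a log2 fold change of -1.44 (SE 0.42, unadjusted p = 0.00905 and adjusted p = 0.175, edgeR). Ntn4, a netrin that binds the laminin gamma chain, had a log2 fold change of -1.13. Bcam, a surface receptor for the Lama5 chain, was at 361, 299 and 409.6 CPM after PRATA and 192, 275 and 207 CPM after the sham operation, above sham in every PRATA sample, with a log2 fold change of 0.67 (SE 0.22, unadjusted p = 0.0157 and adjusted p = 0.196, edgeR). Of the 26 other integrin ligands tested, 6 were lower and 2 higher at that p, again beside 10.1% and 8.19% over all genes tested, with a median of -0.38. The lowest p were those of Ccn2, Postn and Reln, with log2 fold changes of -1.89, -1.78 and -1.62, each without overlap. Fn1, the fibronectin bound by the Itga5 receptor and also named after its value was seen, had a log2 fold change of -0.81 with overlapping groups (unadjusted p = 0.103, edgeR). None of these genes had an adjusted p under 0.05 in edgeR.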

How the data were processed

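RNA of L1-L2 DRG neurons from 3 PRATA and 3 sham SHRs was measured with a stranded total-RNA kit and paired-end sequencing. The authors deposited raw counts per gene, with gene symbols, Ensembl identifiers and biotypes. The submitters' processing notes name STAR 2.7.3a, RSEM and DESeq2, whereas the methods of the study name HISAT2, StringTie and Cuffdiff. Which of these made the counts, and the genome build, annotation and strand setting of the counting, are not given in the sources used here, so antisense and overlapping genes cannot be told apart.

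Counts were used as deposited. Genes were kept with filterByExpr (minimum count 10, minimum total 15), scaled by TMM and compared with edgeR 4.0.16's quasi-likelihood test in R 4.3.3, two-sided, over all genes with Benjamini-Hochberg adjustment. CPM are TMM-scaled, except for the floors, and ratios within a sample used counts plus 0.5. The SE of a log2 fold change in edgeR was not a fitted value. It was derived as the size of the log2 fold change divided by the square root of the test's F value. The code of the fit was checked on counts simulated from the fit's own dispersions with set fold changes. That simulation held no difference in cell mixture and no outlying library, so it cannot speak to either. Alternatives were DESeq2 1.42.0, limma 3.58.1 (trend and voom with sample quality weights), other size factors and filters, protein-coding genes alone, the replicate number as a block, each sample left out in turn, and the removal of PRATA replicate 3 and sham replicate 1, which earlier results of these data had set apart. Ratios to the glial and neuronal markers and the addition of perlecan were chosen after seeing the data.

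The members and lists were chosen with earlier results of these data known. Named with every sample's value were the members with an unadjusted p under 0.05, those without overlap and with a log2 fold change beyond 0.5 in size, and the 3 ligands and 3 receptors of highest mean CPM, and from each pathway list the 3 genes with the smallest p. Other members shown sample by sample were chosen after their values were seen. Of the pathway lists, 38 of 38, 26 of 26, 26 of 28 and 32 of 36 names were found. No 2 libraries were identical. The 3 rats of a group are separate animals by the series' design text. Depth limits the lowest genes, and floors cover counting error only. Figures were drawn with matplotlib 3.10.9. Promoters came from RefSeq's GRCr8 table. Lama3 and Itgad were not analysed here. A few genes of the lists are counted but not reported here.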

Additional observations from a re-analysis of the deposited data

How the results depend on the processing

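Alternatives were run gene by gene for 11 genes (Lamc1, Lama4, Lama2, Itgb8, Itga8, Itgav, Itgb3, Itga5, Itga1, Itgb1 and Dag1), and not for the other genes named. Of 198 values of these 11, 196 kept their direction and 21 came to an adjusted p under 0.05, while Lama2 and Itgb1 turned to 0.20 and 0.21 relative to the satellite glia markers. The 198 include the ratios to satellite glia and sensory neuron markers, which have no p. The 11 genes were chosen by p, overlap or level in these same samples, and the fits share libraries. The tally is thus description and not independent support. Genes at an adjusted p under 0.05 numbered 728 with DESeq2 (2 ligands, 5 receptors), 1173 with limma voom and sample quality weights (2 ligands, 5 receptors), 13 without PRATA replicate 3 and sham replicate 1, and 0 to 721 when 1 sample was left out (0 to 2 ligands, 0 to 5 receptors), the highest without sham replicate 2. At an unadjusted p under 0.05, voom found 2282 genes lower and 2324 higher. Leaving out 1 sample gave 858 to 2181 lower and 548 to 2073 higher, with 1 to 3 ligands lower and 0 to 1 higher. Of the receptors, 5 to 8 were lower and 0 higher in those fits. Without PRATA replicate 3 and sham replicate 1, 1 ligand and 4 receptors were lower at that p, and 2 ligands and 1 receptor were higher. Of the 14808 genes tested in that fit, 1022 were lower and 885 higher.

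Deviations of samples with equal replicate numbers correlated at -0.388, -0.105 and -0.357, so no positive pairing by number was seen. With 3 samples in each group, these values cannot exclude a pairing or a shared batch. With the replicate block, 907 genes were lower and 621 higher at an unadjusted p under 0.05, with 1 ligand and 5 receptors among the lower. The medians were then -0.24 for ligands and -0.14 for receptors. The ligand median ranged from -0.47 to 0.0082 when 1 sample was left out, the latter without sham replicate 1, and was -0.38 with perlecan added. The receptor median ranged from -0.49 to -0.02, and was -0.41 with voom and -0.33 with at least 10 counts in every sample. The median over all genes moved to -0.168 with no filter on low counts. In the ratios, leaving out 1 sample gave -0.052 to 0.24 for Lamb2 to Lamb1, -0.12 to 0.54 for Nid2 to Nid1, -0.034 to 0.65 for Itgb4 to Itgb1, -0.25 to 0.27 for Itga7 to Itga6, -0.46 to 0.22 for Itga3 to Itga6, -0.59 to -0.073 for Dag1 to Itgb1, 0.62 to 1.44 for Lama5 to Lama4, 0.31 to 0.67 for Lama2 to Lama4 and 1.34 to 2.15 for Lamc3 to Lamc1. The cause of these changes was not tested. The low depth of sham replicate 2 limits the precision of the lowest genes.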
